A study of Mus musculus with 10 samples.

Results

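The genes examined are 9 core genes of the Notch pathway: the receptors Notch1, Notch2 and Notch3, the ligands Jag1 and Jag2, the DNA-binding factor Rbpj and the target genes Hes1, Hey1 and Heyl. They were taken by symbol from a table of raw counts and are 9 of its 24421 genes. All 9 had counts in every library, from 8 counts of Hey1 to 2130 of Notch2, and all 9 passed the filter on low counts that left 13688 genes for testing. The counts came from a piece of the pancreas tail of female mice aged 12 weeks, with 1 library per mouse. Every mouse carried Ptf1aCreER, a Cre recombinase tied to the oestrogen receptor and expressed from the acinar gene Ptf1a, and nTnG, a nuclear fluorescent reporter that switches colour after Cre acts. The groups differ in Insr, the insulin receptor gene: 3 mice labelled Insr WT had 0 floxed alleles (w/w), 3 labelled Insr Het had 1 (w/f) and 4 labelled Insr KO had 2 (f/f). Cre of this kind is active in acinar cells after tamoxifen, so ducts, islets, vessels, stroma and immune cells in the piece are expected to keep their Insr alleles. That was not measured here. The labels count 1 more WT mouse, which was not analysed here. By its title the series asks how insulin signalling through the receptor of acinar cells affects digestive enzymes, inflammation and the start of pancreatic ductal cancer.

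Notch receptors span the membrane and are activated by ligands on a neighbouring cell, after which ADAM proteases and gamma-secretase cut the receptor and free its intracellular part. That part enters the nucleus, joins RBPJ on DNA and switches on genes such as Hes1, Hey1 and Heyl, which encode transcriptional repressors. In the pancreas Notch signalling is known for keeping embryonic progenitors undifferentiated, for marking duct and centroacinar cells in the adult, where Hes1 is expressed, and for its return in acinar cells that take on duct-like features. Notch receptors and ligands also act in blood vessels and their mural cells (Notch3) and in macrophages (Notch2). The acinar cell has its own relative of RBPJ, RBPJL, which replaces it in the PTF1 complex that drives enzyme genes.

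Promoter windows of the pathway genes were read to show which hold the letters TGGGAA, the core that RBPJ binds. RefSeq windows on GRCm38.p6, from 250 bases before to 50 after a start site, were listed for 6 of the 9 genes, with Hes1, Hey1 and Heyl missing. The letters, on either strand (TGGGAA or TTCCCA), occurred in the window of 1 of these 6 genes, Rbpj itself, compared with 25.6% of all 32851 windows and 28.3% of 27025 genes. Of the other pathway genes described below, 13 of the 40 with a window held them. The first window of Rbpj (chr5:53590096-53590395, plus strand) and those of the receptors Notch1 (chr2:26503773-26504072, minus strand) and Notch2 (chr3:98013288-98013587, plus strand), whose levels correlated negatively across libraries, are shown with that of Hes5, a classic Notch target (chr4:154960673-154960972, plus strand), for comparison. Each is written 5′ to 3′ along the gene, and capitals mark TGGGAA or TTCCCA.
Rbpj: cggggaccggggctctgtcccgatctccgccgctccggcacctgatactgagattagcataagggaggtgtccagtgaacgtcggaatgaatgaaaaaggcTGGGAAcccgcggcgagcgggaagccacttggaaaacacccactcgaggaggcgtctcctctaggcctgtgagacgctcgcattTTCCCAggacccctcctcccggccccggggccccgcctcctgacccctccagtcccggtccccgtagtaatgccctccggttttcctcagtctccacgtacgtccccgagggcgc
Notch1: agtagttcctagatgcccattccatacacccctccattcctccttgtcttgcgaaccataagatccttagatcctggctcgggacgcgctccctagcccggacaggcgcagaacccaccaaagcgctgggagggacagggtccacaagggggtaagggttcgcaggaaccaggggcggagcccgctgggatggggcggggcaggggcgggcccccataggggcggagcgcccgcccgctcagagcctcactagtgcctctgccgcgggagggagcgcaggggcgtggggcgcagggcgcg
Notch2: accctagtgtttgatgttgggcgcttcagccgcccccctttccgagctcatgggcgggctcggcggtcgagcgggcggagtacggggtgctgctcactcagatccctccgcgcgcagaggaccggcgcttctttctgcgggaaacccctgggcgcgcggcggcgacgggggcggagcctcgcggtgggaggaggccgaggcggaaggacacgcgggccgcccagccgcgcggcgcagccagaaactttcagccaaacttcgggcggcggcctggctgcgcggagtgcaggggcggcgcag
Hes5: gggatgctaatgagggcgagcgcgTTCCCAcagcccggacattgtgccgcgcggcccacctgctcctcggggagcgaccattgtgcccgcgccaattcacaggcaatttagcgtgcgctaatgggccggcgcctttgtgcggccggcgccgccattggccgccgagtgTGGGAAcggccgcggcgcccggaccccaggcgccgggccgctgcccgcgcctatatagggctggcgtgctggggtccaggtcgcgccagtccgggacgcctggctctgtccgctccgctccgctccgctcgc
In Rbpj the letters began 149 and 65 bases before the start site, and in Hes5 226 and 82 bases before it. Neither receptor window held them. The Rbpj windows lie within the annotated gene (chr5:53555779-53657445), while the Notch1 window covers the start of its gene (chr2:26457902-26503822) and the Notch2 window that of its own (chr3:98013538-98150367). The other genes lie at chr17:32120820-32166896 (Notch3), chr2:137081451-137116520 (Jag1), chr12:112907803-112929812 (Jag2), chr16:30065357-30067796 (Hes1), chr3:8663359-8667038 (Hey1) and chr4:123233556-123249870 (Heyl). These are matches of letters, not measured binding, and Hes5 had at most 4 counts in any library and was not tested.

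The libraries held 11718559 to 19024351 gene counts, and 18 digestive enzyme genes took 53.5% to 71.5% of them in 9 libraries but 13.4% in WT-2404. Levels are given as counts-per-million (CPM) of a library size scaled with TMM factors, which ran from 0.596 in KO-2126 to 3.54 in WT-2404. WT-2404 therefore stands apart from every other library, and results that rest on it are given with and without it. Insr itself had 253 to 1259 counts (21.0 to 44.2 CPM), and KO stood 0.09 above WT on the log2 scale (SE 0.26, adjusted p = 0.864, edgeR's quasi-likelihood test). Counts over the whole gene do not show whether exons were deleted, so Insr neither bears out nor contradicts the labels.

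None of the 9 Notch genes was called in any of the contrasts at an adjusted p under 0.05. In the same tests 0% of all 13688 genes were called in KO against WT, in Het against WT, in KO against Het and in the mean of Het and KO (the floxed groups) against WT. At an unadjusted p under 0.05, 3 of the 9 genes, Hes1, Notch2 and Rbpj, were lower in KO than in WT, beside 13.9% of all genes, and 0 were higher, beside 9.61%. The same 3 genes were lower at that level in Het than in WT, beside 11.6% of all genes, and in the floxed groups against WT, beside 16.5%; none was higher in either, beside 8.26% and 11.7%. In KO against Het, 0 of the 9 reached it, beside 0.752% of all genes in either direction. The median log2 fold change of the 9 genes was -0.19 in KO against WT, -0.25 in Het against WT, 0.06 in KO against Het and -0.16 in floxed against WT, where the medians over all genes were 0.03, 0.00, 0.01 and 0.02. These contrasts share libraries, the WT ones above all, so they do not repeat one another independently.

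**Figure D1:**
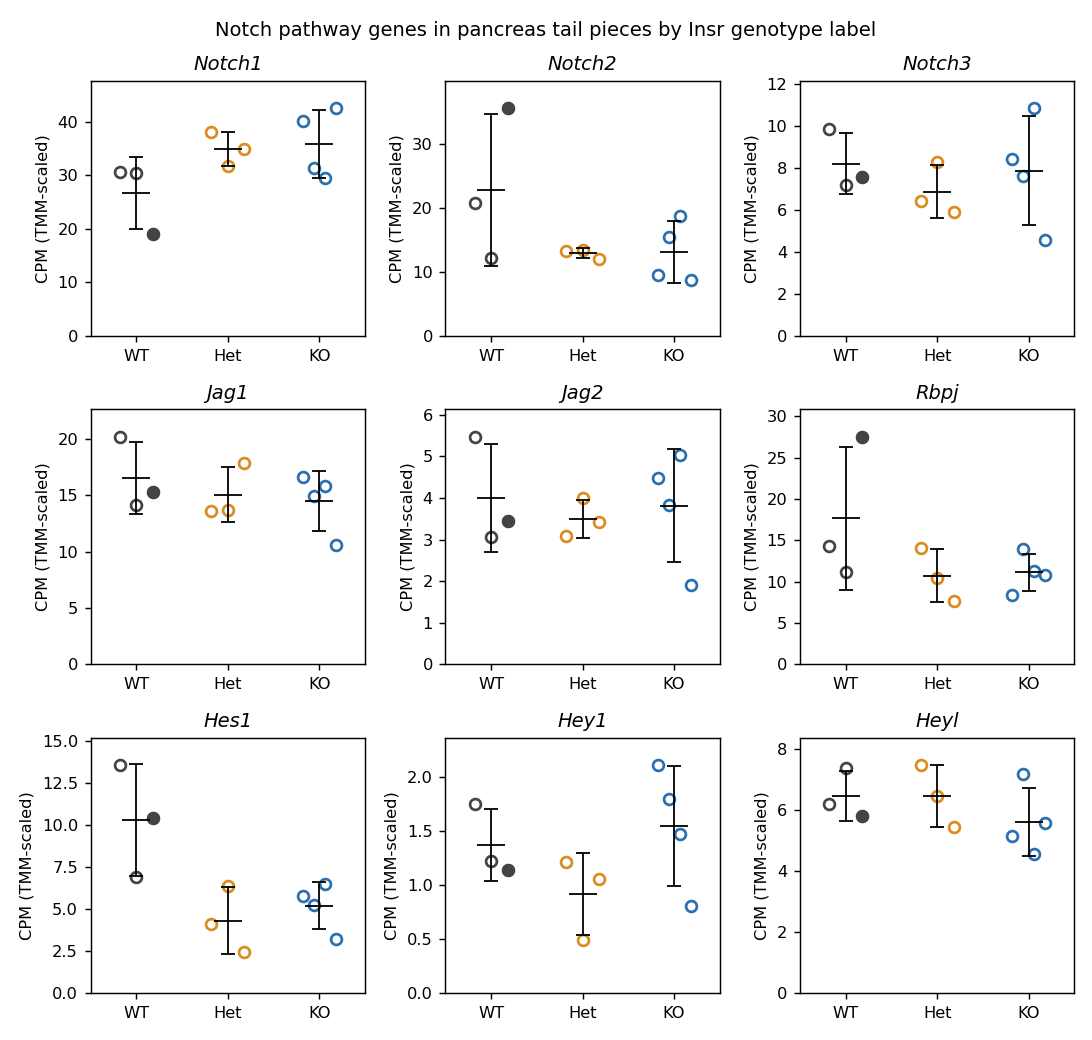
Level of each of the 9 Notch genes in every library (y axis, CPM of the TMM-scaled library size, from 0), grouped by Insr genotype label (x axis). Circles are single mice, the filled circle is WT-2404, and the bars are the mean and SD over 3 WT, 3 Het and 4 KO mice; the Hes1 circles of WT lie above all 7 others, and WT-2404 is the highest for Notch2 and Rbpj and the lowest for Notch1.

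Hes1, the target gene that marks Notch activity in duct and centroacinar cells, was lower in every floxed library than in every WT library. Its level was 10.4, 13.6 and 6.92 CPM in WT-2404, WT-1860 and WT-2067. It was 2.46 CPM in Het-2066, 4.10 in Het-1770 and 6.39 in Het-2042, and 5.26 CPM in KO-2079, 5.80 in KO-2070, 6.50 in KO-2124 and 3.23 in KO-2126. In the sentences below, values of a group come in this same order of libraries. The groups did not overlap, with the lowest WT value just above the highest KO value, while Het and KO overlapped. WT mice averaged 10.3 ± 3.32 CPM (SD, n = 3), Het mice 4.31 ± 1.97 (SD, n = 3), and KO mice 5.20 ± 1.40 (SD, n = 4). On the log2 scale Hes1 differed by -0.98 in KO against WT (SE 0.33, 95% interval -1.70 to -0.26, adjusted p = 0.129, edgeR), -1.24 in Het against WT (SE 0.36, adjusted p = 0.184, edgeR) and -1.11 in floxed against WT (SE 0.29, 95% interval -1.74 to -0.48, adjusted p = 0.0618, edgeR). None of these passed the threshold. Over single mice the exact permutation test gave p = 0.0286 for KO against WT, the smallest that 3 against 4 mice allow, and p = 0.0167 for floxed against WT (two-sided, 1 of 36 such tests, not adjusted). Separate ranges with the lower values in the floxed libraries were found for 5.84% of all genes, in KO against WT for 9.15% and in Het against WT for 13.5%. KO and Het did not differ beyond their spread (log2 fold change 0.26, 95% interval -0.50 to 1.02).

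Without WT-2404 the floxed against WT log2 fold change of Hes1 was -1.08 (SE 0.34, adjusted p = 0.403, edgeR), and that of KO against WT was -0.96 (SE 0.38, adjusted p = 0.510, edgeR), so the size changed little and the adjusted p rose. Without WT-1860, the WT library with the highest Hes1, these log2 fold changes were -0.87 and -0.74, the smallest in size when a single library was left out. Without WT-2067, the WT library with the lowest Hes1, the floxed against WT value was -1.32 with an adjusted p of 0.0151 (edgeR), in a fit that called 2829 genes (20.0%). With DESeq2 the adjusted p was 0.0159, in a fit that called 12.8% of all genes. Over all alternatives the adjusted p ran from 0.0040 to 0.938. The lowest came with library size alone and no TMM factors, a fit that called 7121 genes (52.0%) and moved the median of all genes to -1.26. Duct markers were lower in the same libraries. Summed over 12 genes, they stood at 828 to 1356 CPM in WT, 396 to 696 in Het and 398 to 684 in KO, and 10 of the 12 had a lower mean in floxed than in WT. Relative to the mean of the duct markers, the log2 level of Hes1 was -2.28 to -1.70 in WT libraries, -2.63 to -2.24 in Het libraries and -2.48 to -0.98 in KO libraries, so these ranges overlapped. WT and floxed libraries overlapped in the same measure against the fibroblast, macrophage, mural and acinar lists. Of the 6 lists compared, the endothelial one alone gave no overlap, with Hes1 at -0.54 to -0.06 in WT, -2.46 to -1.16 in Het and -1.50 to -1.25 in KO. In a whole piece of tissue fewer cells of a type and less RNA per cell cannot be told apart, and the part that the number of duct cells has in the Hes1 values was not tested.

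The other target genes showed no such pattern. Hey1, a repressor best known from blood vessels, was the lowest of the 9 genes, averaging 1.37 ± 0.332 CPM over WT mice (SD, n = 3), 0.919 ± 0.379 over Het mice (SD, n = 3) and 1.55 ± 0.556 over KO mice (SD, n = 4). With 8 to 68 counts per library, its floxed against WT log2 fold change of -0.21 had a 95% interval of -1.10 to 0.68, which spans differences in either direction. Its KO against Het value, 0.77 (SE 0.49, unadjusted p = 0.139, edgeR), was the highest of the 9 in that contrast. Heyl, a related repressor known from smooth muscle and pericytes, varied little, with 5.80 to 7.35 CPM in WT, 5.44 to 7.46 in Het and 4.56 to 7.17 in KO. The floxed against WT log2 fold change of Heyl was -0.10 (SE 0.20, 95% interval -0.53 to 0.34).

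**Figure D2:**
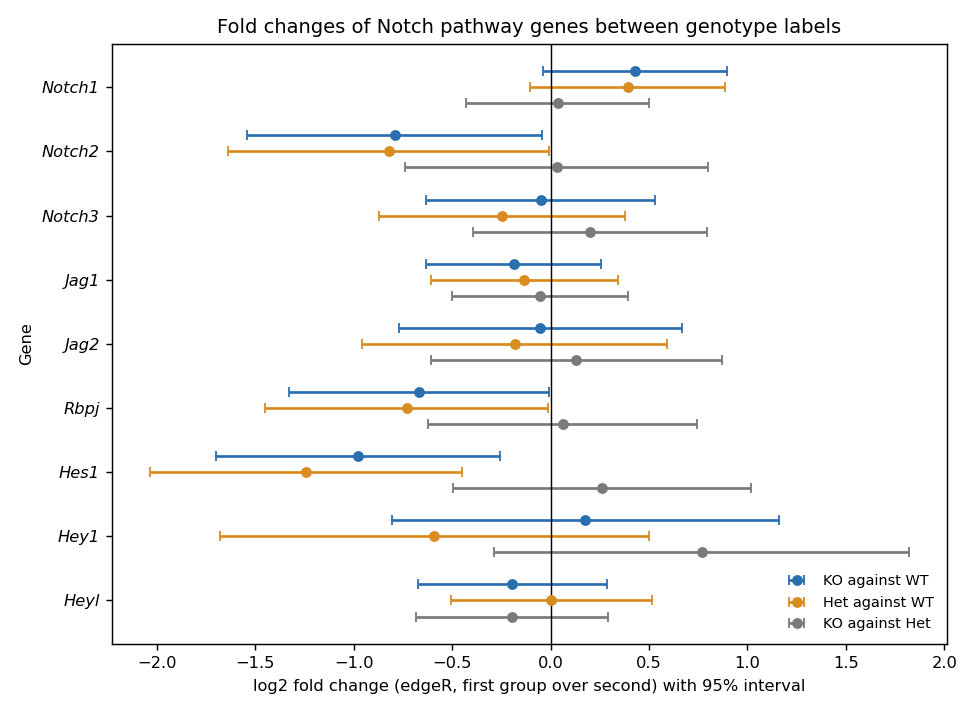
Log2 fold change of each of the 9 Notch genes (x axis) in KO against WT, Het against WT and KO against Het, from edgeR's fit over all 10 libraries; points are estimates and bars their 95% intervals, not adjusted for the number of genes. Hes1, Notch2 and Rbpj have intervals below 0 in the contrasts with WT, and every interval of KO against Het crosses 0.

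Among the receptors, Notch2 had a lower and Notch1 a higher mean in the floxed groups than in WT, and neither passed the threshold. Notch2 was at 35.6, 20.8 and 12.1 CPM in the WT libraries (WT-2404 first, then WT-1860 and WT-2067). It was at 12.1, 13.3 and 13.5 CPM in the Het libraries, and at 15.5, 9.49, 18.8 and 8.69 CPM in the KO libraries. WT-2404 and WT-1860 were higher than all 7 floxed libraries, whereas WT-2067 lay among them. Notch2 had a log2 fold change of -0.79 for KO against WT (SE 0.34, adjusted p = 0.194, edgeR) and -0.81 in floxed against WT (SE 0.30, adjusted p = 0.119, edgeR). Without WT-2404 the latter was -0.31 (SE 0.29, adjusted p = 0.678, edgeR), and without WT-2067 it was -1.10 (adjusted p = 0.0182, edgeR), so the size depends on which WT libraries are used. Over all alternatives the adjusted p ran from 0.0060, again with library size alone, to 0.999.

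Notch1 was at 19.0 CPM in WT-2404 and 30.5 in both WT-1860 and WT-2067. The Het libraries had 34.9, 38.0 and 31.7 CPM, all above the WT libraries (as for 11.3% of all genes), and the KO libraries had 31.3, 40.1, 29.5 and 42.5, with 1 of the 4 below the highest WT value. The floxed against WT log2 fold change of Notch1 was 0.41 (SE 0.20, 95% interval -0.02 to 0.84, adjusted p = 0.193, edgeR), and without WT-2404 it was 0.21 (SE 0.18). With library size alone, which moved the median of all genes to -1.26, it was -0.74, so Notch1 stood 0.52 above that median and kept its direction relative to other genes.

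Notch3, the receptor of mural cells, had 7.57, 9.85 and 7.17 CPM in the WT libraries, 5.88 to 8.29 in Het and 4.55 to 10.8 in KO. Its groups overlapped, and the floxed against WT log2 fold change was -0.15 (SE 0.24, 95% interval -0.67 to 0.37). The ratio of Notch2 to Notch1, per kilobase of exon, was 2.48 in WT-2404 and below 1 in the other libraries, at 0.901 in WT-1860, 0.526 in WT-2067, 0.458 to 0.562 in Het and 0.270 to 0.843 in KO. This ratio was chosen after its values were seen. Notch2 made up 51.2% of the 4 receptors' summed level per length in WT-2404.

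The ligands did not separate the groups. Jag1, the main Notch ligand of ducts and vessel walls, had 15.3, 20.2 and 14.2 CPM in the WT libraries, 13.6 to 17.9 in Het and 10.6 to 16.6 in KO. Its floxed against WT log2 fold change was -0.16 (SE 0.18, 95% interval -0.56 to 0.24). Jag2, a second ligand of the same class, had 3.06 to 5.47 CPM in WT, 3.08 to 3.99 in Het and 1.92 to 5.03 in KO, with a log2 fold change of -0.12 (SE 0.30, 95% interval -0.77 to 0.53). KO-2126 was the lowest library for both ligands and for Notch3. Jag1 made up 49.9% to 70.5% of the summed level per length of Jag1, Jag2, Dll1 and Dll4 in each library.

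Rbpj, through which all 4 receptors act on DNA, had 27.5, 14.3 and 11.2 CPM in the WT libraries. The Het libraries had 7.63, 14.1 and 10.5 CPM and the KO libraries 14.0, 8.43, 11.3 and 10.8. WT-2404 was the highest, and the other WT libraries lay within or just above the floxed range. The log2 fold change of Rbpj was -0.70 in floxed against WT (SE 0.27, adjusted p = 0.124, edgeR), and -0.21 without WT-2404 (SE 0.25). Its acinar relative Rbpjl had 11.3 CPM in WT-2404 and 189 to 516 in the other 9 libraries. Per kilobase of exon, the ratio of Rbpj to Rbpjl was 1.09 in WT-2404 and 0.00984 to 0.0334 in the others, which include 2 WT libraries. GENCODE M21 lists the pseudogenes Rbpj-ps1 and Rbpj-ps3, so Rbpj counts are uncertain where reads were shared with them. Exons of Notch1 and Notch3 overlap annotated genes on the opposite strand by 414 to 1068 bases, and those of Notch2 a gene on the same strand by 541 bases. Whether reads were counted by strand is not given, so these counts are uncertain too.

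Per kilobase of exon, Hes1 was the highest of the 9 genes in WT (5.06 ± 1.63 CPM per kilobase, SD, n = 3), followed by Jag1 (2.84 ± 0.550), Notch2 (2.12 ± 1.10), Notch1 (1.87 ± 0.467), Rbpj (1.39 ± 0.678), Heyl (1.26 ± 0.159), Notch3 (1.01 ± 0.178), Jag2 (0.573 ± 0.186) and Hey1 (0.420 ± 0.102). Only Notch3 and Jag2 were neighbours in this order without overlapping ranges. In KO, Hes1 (2.55 ± 0.689, SD, n = 4), Notch1 (2.52 ± 0.450) and Jag1 (2.49 ± 0.460) stood level at the top, all above Notch2 (1.22 ± 0.451). Hey1 was last in every group.

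The piece of tissue varied in its cell types in the same libraries. Of the marker lists, all 21 acinar genes had a higher mean in floxed than in WT (median log2 fold change 1.22) and so did all 9 islet genes (0.99). All 10 fibroblast genes (-1.06), all 9 macrophage genes (-1.70), all 10 lymphoid genes (-1.35), 10 of 12 duct genes (-1.13) and 10 of 11 mural genes (-0.56) had a lower one, and 9 of 11 endothelial genes a higher one (0.21). Without WT-2404 the medians were 0.66 for the acinar list (20 of 21 higher), 0.50 for islet (7 of 9), -0.63 for fibroblast (8 of 10 lower), -0.88 for macrophage (9 of 9), -1.60 for lymphoid (10 of 10), -0.93 for duct (11 of 12) and -0.49 for mural (11 of 11), and 0.19 for endothelial (8 of 11 higher). No marker passed the adjusted threshold with or without that library. Summed macrophage markers were at 456 to 1874 CPM in WT, 248 to 375 in Het and 146 to 540 in KO, and fibroblast markers at 1326 to 4537, 581 to 1053 and 517 to 1214. Lymphoid markers summed to 42.0 to 78.0 CPM in WT, 19.7 to 22.2 in Het and 7.48 to 47.3 in KO, mural markers to 93.5 to 147, 76.6 to 84.1 and 42.3 to 102, and endothelial markers to 163 to 254, 216 to 251 and 150 to 303. The defining genes of T and B cells, Cd3d, Cd3g, Cd8a and Ms4a1, were at 0 in 1 or 2 libraries each.

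Notch1 and Notch2 followed the acinar, macrophage and fibroblast lists with opposite signs over the 10 libraries, and no difference between lists was tested. Notch1 rose with the acinar list (Pearson's r = 0.94, permutation p = 9.0e-05, adjusted over 72 relations p = 0.00216; Spearman's rho = 0.93, permutation p = 0.00041, adjusted p = 0.00984). Without WT-1860 and WT-2404, the libraries farthest from the list's median, r was 0.94, and with the group means taken off it was 0.89. Its r was -0.94 with the macrophage list (permutation p = 0.00034, adjusted p = 0.0042) and -0.92 with the fibroblast list (permutation p = 0.00075, adjusted p = 0.0077). Notch2 rose with the macrophage list (r = 0.97, permutation p = 3.0e-05, adjusted p = 0.00108; rho = 0.94, permutation p = 0.00018, adjusted p = 0.00984), with r = 0.93 without KO-2070 and WT-2404 and 0.97 within groups. Its r was -0.91 with the acinar list (permutation p = 3.0e-05, adjusted p = 0.00108) and 0.93 with the fibroblast list (permutation p = 0.00035, adjusted p = 0.0042). The signs were opposite with the duct list too, at r = -0.81 for Notch1 (permutation p = 0.00131, adjusted p = 0.0105) and 0.82 for Notch2 (permutation p = 0.00256, adjusted p = 0.0154). With the mural list rho was -0.89 for Notch1 (permutation p = 0.00115, adjusted p = 0.0151) and 0.82 for Notch2 (permutation p = 0.00555, adjusted p = 0.0333). Notch3 rose with the mural list (r = 0.85, permutation p = 0.00247, adjusted p = 0.0154; rho = 0.68, permutation p = 0.0341, adjusted p = 0.0982), with r = 0.61 without KO-2126 and WT-1860 and 0.94 within groups. It also had r = 0.79 with the endothelial list (permutation p = 0.00621, adjusted p = 0.0267) and 0.78 with the lymphoid list (permutation p = 0.00874, adjusted p = 0.0331). The rho values were 0.79 (permutation p = 0.00802, adjusted p = 0.0442) and 0.58 (permutation p = 0.0874, adjusted p = 0.225). The endothelial r was 0.43 without KO-2124 and KO-2126, and the lymphoid r 0.48 without KO-2126 and WT-1860. Within groups both were 0.92. With the macrophage list the r of Notch3 was 0.43, but 0.91 without KO-2070 and WT-2404. Relations of this kind share the library and its scaling factor, and the lists were chosen with results of these data known.

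**Figure D3:**
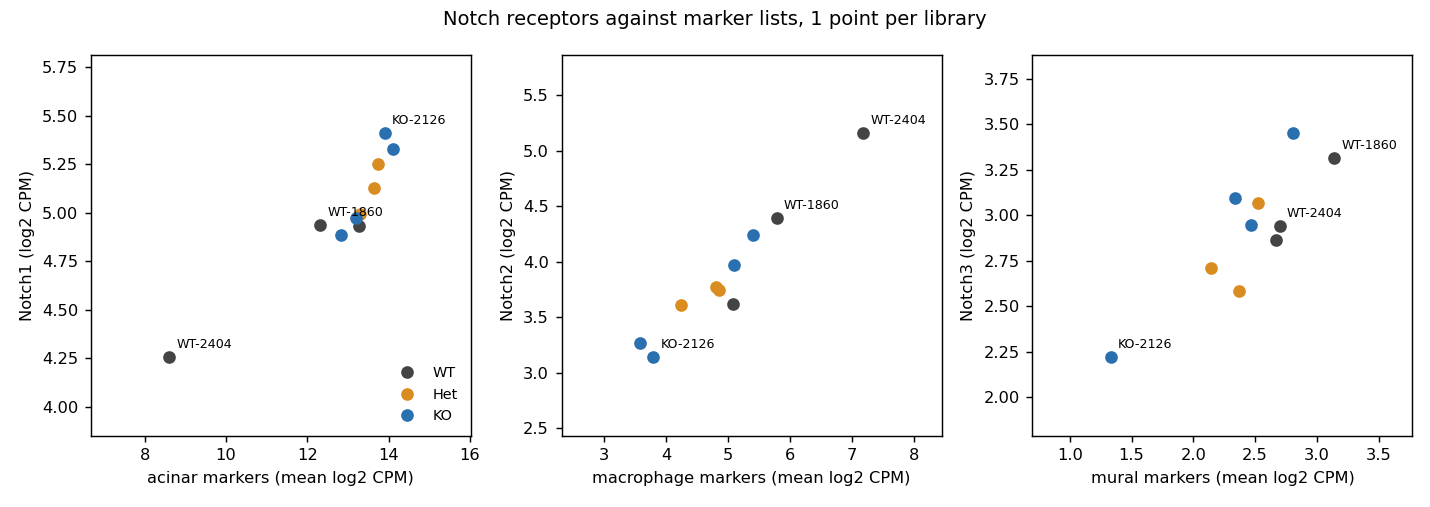
Each receptor's log2 CPM (y axis) against the mean log2 CPM of a marker list (x axis), with 1 point per library coloured by genotype label; the axes do not start at 0. Notch1 rises with the acinar list, Notch2 with the macrophage list and Notch3 with the mural list, and WT-2404 lies at the end of the first and the second.

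Jag2 rose with the endothelial list (r = 0.90, permutation p = 0.00026, adjusted p = 0.0042; rho = 0.87, permutation p = 0.00181, adjusted p = 0.0186), with r = 0.77 without KO-2124 and KO-2126. Jag1 had r = 0.80 with the mural list, but 0.03 without KO-2126 and WT-1860, so that relation rests on those libraries. Rbpj rose with the fibroblast list (r = 0.90, permutation p = 0.00118, adjusted p = 0.0105), with r = 0.69 without KO-2070 and WT-2404. Its rho with that list was 0.77 (permutation p = 0.0122, adjusted p = 0.0517). With the macrophage list Rbpj had r = 0.88 (permutation p = 0.00201, adjusted p = 0.0145) and rho = 0.85 (permutation p = 0.00271, adjusted p = 0.0199). That r was 0.60 without the same libraries. Its r was also -0.87 with the acinar list (permutation p = 0.00589, adjusted p = 0.0267), -0.83 with the islet list and 0.76 with the duct list. Without WT-2404 these r values were -0.55, -0.40 and 0.69, so the acinar and islet relations rest largely on that library. The rho of Rbpj was -0.71 with the acinar list (permutation p = 0.02585, adjusted p = 0.0809) and -0.55 with the islet list (permutation p = 0.1043, adjusted p = 0.259). With the duct list it was 0.71 (permutation p = 0.02728, adjusted p = 0.0818). For Hes1 the highest r was 0.80, with the lymphoid list (permutation p = 0.00593, adjusted p = 0.0267; rho = 0.83, permutation p = 0.00451, adjusted p = 0.0295), or 0.63 without KO-2126 and WT-1860. It was 0.79 with the fibroblast list (permutation p = 0.00713, adjusted p = 0.0285; rho = 0.79, permutation p = 0.00859, adjusted p = 0.0442) and 0.76 with the duct list (permutation p = 0.00993, adjusted p = 0.0358; rho = 0.76, permutation p = 0.0141, adjusted p = 0.0564). With the 2 farthest libraries left out the fibroblast and duct r values were 0.93 and 0.91, and within groups 0.56 and 0.63. With the mural list Hes1 had r = 0.75 (permutation p = 0.0131, adjusted p = 0.0428), or 0.65 without KO-2126 and WT-1860. Its rho with the mural list was 0.87 (permutation p = 0.00209, adjusted p = 0.0188), the highest rho of Hes1 with any of the 8 lists. Hey1 and Heyl followed none of the 8 lists at an adjusted p under 0.05. The part that the mix of cells has in the group differences was not tested by these relations.

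**Figure D4:**
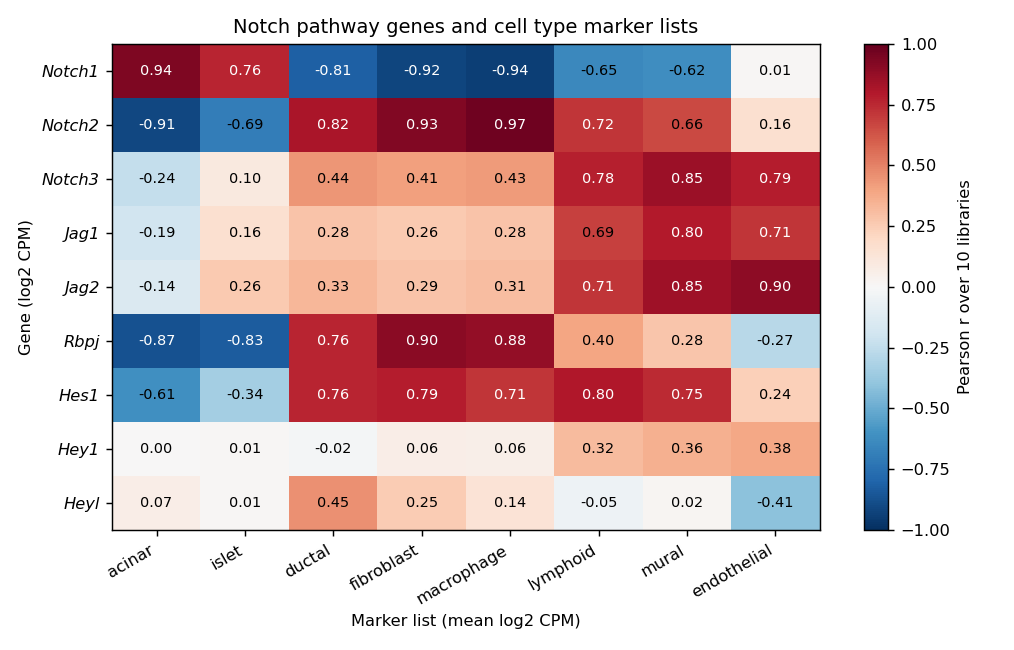
Pearson's r over 10 libraries between the log2 CPM of each Notch gene (rows) and the mean log2 CPM of each marker list (columns), printed in each cell and coloured from -1 (blue) to 1 (red). Notch1 and Notch2 have opposite signs with the acinar and macrophage lists, and the Hey1 and Heyl rows stay near 0 for most lists.

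With the share of counts from the 18 enzyme genes as a covariate, a setting chosen after seeing the data, Hes1 had a floxed against WT log2 fold change of -0.93 (SE 0.36, adjusted p = 0.938, edgeR). In the same fit Notch2 was at -0.0020 (SE 0.24), Rbpj at -0.053 (SE 0.26) and Notch1 at 0.063 (SE 0.19), and none of these differences between genes was tested. WT-2404 has by far the lowest value of that covariate, and no gene was called in that fit.

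Among the 9 genes, Pearson's r of log2 CPM over the libraries ran from -0.93 between Notch1 and Notch2 (-0.82 without WT-2404) to 0.94 between Notch3 and Jag2, over 36 pairs. The genes outside the pathway most like each member by this measure over 10 libraries were named. For Notch1 they were Mob2 (0.98) and Asb8 (0.98). Those most like Notch2 were Clec10a (0.99), a lectin of macrophages and dendritic cells, the ion channel Piezo1 (0.98) and Stab1 (0.98), a scavenger receptor of macrophages and sinusoidal endothelium. Rbpj was closest to the collagen gene Col14a1 (0.97), Plxnb2 (0.96) and Man2b1 (0.95). Hes1 was closest to Zdhhc18 (0.96), Sf3a2 (0.96) and Endod1 (0.96). Jag1 was closest to Myl9 (0.94), a smooth muscle myosin light chain, Selp (0.93), an adhesion receptor of endothelium and platelets, and Fam124a (0.91). For Notch3 the nearest were Rltpr (0.94), Iffo1 (0.92) and Pkmyt1 (0.92), and for Jag2 Rltpr (0.96), Foxred1 (0.94) and Pkn3 (0.93). Rltpr had few counts, with 7 to 40 in WT libraries, 4 to 9 in Het and 0 to 32 in KO. Hey1 was nearest to Sctr (0.89), the secretin receptor of duct cells, Rdh11 (0.87) and C2cd5 (0.84), and Heyl to Pkp3 (0.89), Pak4 (0.89) and Rab6b (0.84). With the duct list as a whole Hey1 had r = -0.02, and its counts ran from 8 to 68 per library. All these genes were picked as the highest over the tested genes outside the pathway, from 10 libraries, and none of these r values was tested.

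Of 51 other pathway genes listed by role, all were in the table and 46 were tested. The ligands Dll3 and Dlk2 and the targets Hes2, Hes3 and Hes5 had too few counts, at most 11. In floxed against WT 0 of the 46 were called, 5 were lower and 4 higher at an unadjusted p under 0.05 (16.5% and 11.7% of all genes), and the median log2 fold change was -0.09. Those with the smallest p on the lower side were Adam17, a protease that can shed receptors and ligands (-0.79, SE 0.22, adjusted p = 0.0621, edgeR), Dtx3l, a ubiquitin ligase of the Deltex family (-0.83, SE 0.23, adjusted p = 0.0640), and Ncstn, the nicastrin subunit of gamma-secretase (-0.54, SE 0.18, adjusted p = 0.0853). Adam17 was at 14.2 to 24.8 CPM in WT, 10.4 to 11.5 in Het and 6.57 to 12.8 in KO, and Ncstn at 32.3 to 46.6, 21.8 to 30.2 and 21.5 to 30.7, so for both all floxed libraries lay below all WT libraries, as for 5.84% of all genes. Without WT-2404 the log2 fold changes were -0.51 for Adam17 (SE 0.23, adjusted p = 0.426, edgeR), -0.42 for Dtx3l (SE 0.22, adjusted p = 0.475) and -0.36 for Ncstn (SE 0.19, adjusted p = 0.473). Dtx3l was at 16.1 CPM in WT-2404 and at 6.86 to 9.90 in the other WT libraries, beside 4.88 to 7.19 in floxed.

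On the higher side were Mib1, the ubiquitin ligase that lets ligands be pulled into the sending cell (0.75, SE 0.22, adjusted p = 0.0660, edgeR), Aph1c, a gamma-secretase subunit (0.86, SE 0.28, adjusted p = 0.0859), and Rfng, a glycosyltransferase that modifies receptors (0.65, SE 0.24, adjusted p = 0.116). Mib1 was at 8.31 to 11.3 CPM in WT, 11.4 to 22.1 in Het and 12.6 to 17.9 in KO, with no overlap between WT and floxed, as for 3.99% of all genes in that direction. Aph1c has the near-identical copy Aph1b, and its counts are uncertain to that extent. Aph1b was at -0.40 in floxed against WT (SE 0.32, adjusted p = 0.427, edgeR), and how reads were shared between the copies was not tested. Without WT-2404 the values were 0.72 for Mib1 (SE 0.25, adjusted p = 0.403, edgeR), 0.61 for Aph1c (SE 0.29, adjusted p = 0.438) and 0.39 for Rfng (SE 0.21, adjusted p = 0.487). Dll1, a ligand known from immature and secretory-lineage cells, was named after its values were seen: it had 2.08 to 5.58 CPM in WT, 0.932 to 2.89 in Het and 0.607 to 1.89 in KO, with a floxed against WT log2 fold change of -1.26 (SE 0.42, adjusted p = 0.0880, edgeR), or -1.31 without WT-2404 (SE 0.49, adjusted p = 0.403). As a share of the summed level per length of Jag1, Jag2, Dll1 and Dll4 it averaged 16.4% ± 3.54 over WT mice (SD, n = 3), 10.5% ± 4.90 over Het mice (SD, n = 3) and 6.39% ± 2.21 over KO mice (SD, n = 4). The exact permutation test gave p = 0.0286 for that share in KO against WT (two-sided, 0.229 adjusted over 8 tests), on 6 to 195 counts of Dll1 per library.

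**Figure D5:**
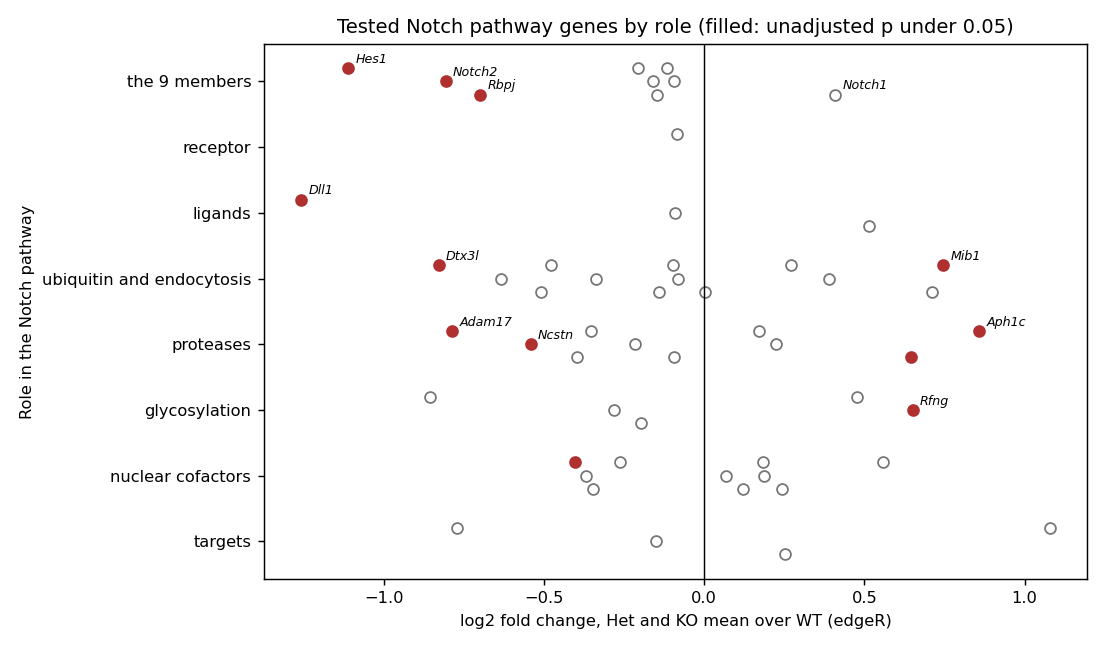
Log2 fold change of the tested Notch pathway genes in the mean of Het and KO over WT (x axis, edgeR), in rows by role with the 9 core genes on top; filled points have an unadjusted p under 0.05 and none passed the adjusted threshold. Filled points lie on both sides of 0, with 3 of the 9 core genes below it.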

How the data were processed

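The table the authors deposited gives raw, unscaled counts by gene symbol in 1 column per mouse, and all 10 columns were matched to samples by genotype and mouse number (0 left over). Per the submitters' processing notes, DRAGEN, STAR and Cufflinks and the build mm10 were named, with no role or version; how reads were counted, with which annotation and whether by strand, is not given in the sources used here. Per the labels' protocols, libraries were made from total RNA with a stranded mRNA kit. The 2 rows that name no gene were left out; they took 2.59% to 8.71% (outside genes) and 0.101% to 0.584% (ambiguous) of counts. Another allele, which every mouse of the study carried, and 1 gene that the naming rule below selects are not reported here.

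Genes were tested with edgeR 4.0.16 in R 4.3.3 (filterByExpr with a minimum count of 10, TMM factors, robust quasi-likelihood fit over all 10 libraries, Benjamini and Hochberg adjustment over 13688 genes, threshold 0.05, two-sided), and the scripts were tested on simulated data. Log2 CPM used a prior count of 2. Libraries of a group differed by more than sampling noise (chi-square per degree of freedom 26.5 to 988), and each counted as 1 replicate. Each library came from its own mouse. Single values per mouse were compared by exact permutation, whose smallest p is 0.0286 for 3 against 4 mice, 0.1 for 3 against 3 and 0.00833 for 3 against 7. Correlations used 100000 permutations (SciPy 1.17.1). Levels per kilobase used exon lengths of GENCODE M21, whose build matches the submitters', and promoters came from RefSeq on GRCm38.p6. The members, marker lists and pathway list were chosen with earlier results of these data known. All 9 members were named, with up to 3 other pathway genes in each direction by smallest p in floxed against WT, and the 3 tested genes outside the pathway with the highest r for each member. Alternatives were DESeq2 1.42.0, other scalings and filters, fewer groups, each library left out, and the enzyme share as a covariate.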

Additional observations from a re-analysis of the deposited data

How the results depend on the processing

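No paired analysis was possible because the groups share no replicate numbers. Of 603 values of the 9 genes under alternative settings, 545 kept their direction and side of the threshold, 39 reversed and 19 passed the threshold only there. Library size alone, with no TMM factors, called 3 of the 9 genes in KO against WT, 3 in Het against WT and 6 in floxed against WT (2841, 3140 and 7121 of all genes), with the median of all genes at -1.17, -1.36 and -1.26. DESeq2 called 1 of the 9 in floxed against WT, and 1009, 400 and 1753 of all genes in these contrasts; with a filter of 1 count, 8 of all genes were called in floxed against WT. Leaving out 1 library at a time gave 0 to 2 of the 9 genes in KO against WT, 0 to 1 in Het against WT, 0 to 0 in KO against Het and 0 to 3 in floxed against WT, and of all genes 0 to 1932, 0 to 1160, 0 to 0 and 0 to 2829. All of these calls of the 9 genes came without WT-2067, which called Notch2 and Hes1 in KO against WT, Hes1 in Het against WT, and Notch2, Hes1 and Rbpj in floxed against WT; leaving out KO-2079 or KO-2124 called 50 and 490 of all genes in floxed against WT. The cause was not tested.

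Library size alone moves all genes together, so signs change with that shift: Notch1 was at -0.67, -0.82 and -0.74 in KO, Het and floxed against WT, Hey1 at -0.94 in KO against WT, Heyl at -1.31 in Het against WT and Jag1 at 0.14 in KO against Het. Relative to the median of all genes these were 0.50, 0.54, 0.52, 0.23, 0.05 and -0.03, with the direction of the values with TMM factors. Heyl in Het against WT, at 0.0042, was -0.012 with DESeq2, -0.015 with relative log expression factors, -0.0092 with a filter of 1 count and -0.14 with the enzyme share as a covariate. That covariate, chosen after seeing the data, gave Notch3 0.016 in KO against WT, Notch2 0.016 in Het against WT and Notch2 -0.036 in KO against Het. Leaving out 1 library, values that changed sign ran as follows. In KO against WT they were -0.27 to 0.13 for Notch3 and -0.23 to 0.23 for Jag2. In Het against WT they were -0.11 to 0.12 for Heyl, -0.27 to 0.031 for Jag1 and -0.33 to 0.10 for Jag2. In KO against Het they were -0.057 to 0.10 for Notch1, -0.21 to 0.18 for Notch2, -0.027 to 0.38 for Notch3, -0.12 to 0.088 for Jag1, -0.061 to 0.34 for Jag2, -0.014 to 0.67 for Hes1 and -0.13 to 0.30 for Rbpj. In floxed against WT they were -0.25 to 0.0035 for Jag1, -0.26 to 0.17 for Jag2, -0.33 to 0.0014 for Hey1 and -0.17 to 0.015 for Heyl. Depth limits Hey1 most, with as few as 8 counts.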
